A study of Rattus norvegicus with 4 samples.

Results

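The Mtor locus was examined as the window chr5:164500001-166200000 of the rat build rn6, which surrounds the gene Mtor. The members were the 170 bins of 10 kb in this window, of 277880 bins in all, and they were set by position, around a gene that the study had singled out for its contacts in these data. In the window, 160 bins held enough contacts to be used, as did 245649 bins of the whole genome. Mtor covered 12 of the bins, chr5:165260001-165380000, and RefSeq places it on the plus strand. Its start was taken to lie in the bin chr5:165260001-165270000 and its 3' end in the bin chr5:165370001-165380000, and all 12 bins were used. The span of the gene was given only approximately and the strand comes from the build GRCr8, so both ends may lie a bin away from those named.

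The data were Hi-C contacts of primary Schwann cells, the glia of peripheral nerve, from rat sciatic nerve. In Hi-C, pieces of DNA that were neighbours in the fixed nucleus are ligated and read as pairs, so each count is 1 contact between a pair of genomic bins. Lenti-AS cells received a lentivirus that overexpresses the antisense RNA of the Egr2 promoter, and Lenti-GFP cells received a control lentivirus with GFP. The study names different plasmids for them, a DsRed vector for the antisense RNA and an AcGFP vector for the control. Both groups were grown with forskolin and heregulin-β1, were infected for 48 h at 2 UFC per cell, and were given by 2 libraries each. Uninfected cells were not analysed here, and Hi-C holds no expression values against which the labelled cell type could be checked.

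Mtor encodes the kinase mTOR, the catalytic subunit of the complexes mTORC1 and mTORC2, which couple growth factors, nutrients and energy to protein synthesis and cell growth. In Schwann cells the pathway is known for its part in myelination during development and in the response to nerve injury. Promoters and distant regulatory elements can meet when the chromatin between them folds away, and such contacts are often shaped by domains, stretches of chromosome that contact themselves more than their neighbours. At this locus, the comparison of both viruses bears on 2 questions. The first is whether the Mtor promoter keeps its contacts with a distant cluster of regulatory elements. The second is whether a domain edge forms at the 3' end of the gene. The text of the study gives the cluster's distance from the promoter but not its side. Its place before the gene was assumed here, and no regulatory element was located.

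Sequencing gave 94956821 and 110770015 contacts for Lenti-GFP replicates 1 and 2, against 74811640 and 70488877 for those of Lenti-AS. At a distance of 300 kb a pair of 10 kb bins held between 0.977 and 1.56 contacts on average in the 4 libraries, so single pairs were measured with large counting error. Contact values below, unless counts or ppm, are observed counts divided by the count expected from the library's own mean at the same distances. They are written as observed over expected. A value of 1 means as many contacts as the genome average at that distance. Where stated, the expected count also held the cis contacts of both bins, those within the chromosome. The methods read here speak of independent samples without naming separate cultures or animals, so tests measure the spread between these libraries, which may be technical. With 2 libraries against 2, an exact permutation test of a single value cannot give a p below 0.333.

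The promoter is shown because the start of Mtor lay next to the sharpest domain edge of the window, described below. RefSeq gives it in the build GRCr8 as chr5:164167735-164168034 on the plus strand, from 250 bases before the start to 50 after it. Capitals mark the matches of 3 of 5 searched motifs on either strand.

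Mtor promoter: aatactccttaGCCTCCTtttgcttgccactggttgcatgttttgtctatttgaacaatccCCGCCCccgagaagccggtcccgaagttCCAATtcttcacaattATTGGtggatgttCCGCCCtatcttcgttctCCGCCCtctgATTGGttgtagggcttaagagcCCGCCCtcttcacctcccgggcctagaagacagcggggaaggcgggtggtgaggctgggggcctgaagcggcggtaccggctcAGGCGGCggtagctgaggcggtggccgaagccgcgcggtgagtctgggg

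It held 4 matches of the GC box GGGCGG, which 33.1% of 33469 promoters of the same length hold, and 3 matches of the box CCAAT, which 37.5% hold. The letters AGGNGGC, the core of the motif of CTCF, a protein found at many domain edges, had 2 matches, and 27.1% of promoters hold them. The YY1 core AANATGG, found in 18.3% of promoters, and the AP-1 site TGANTCA, found in 7.33%, had 0 matches in this window. No match overlapped one of another motif. In the gene order of GRCr8, Angptl7, Exosc10, a catalytic subunit of the RNA exosome, and Srm, the spermidine synthase, come next after the start of Mtor. Gene positions in rn6 were not used here, so no bin is assigned to these neighbours.

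The window was divided by 5 sharp domain edges, and the start of Mtor lay 10 kb after the sharpest of them. Edges were found as local minima of the insulation score, the log2 of observed over expected contacts across a bin between the 200 kb on its left and the 200 kb on its right. In the sum of the 4 libraries the edge at chr5:165250001-165260000 had a score of -2.01, lower than all but 1.60% of the bins scored in the genome. The other edges began at 164.66 Mb (-1.84), 164.98 Mb (-1.77), 165.47 Mb (-0.975) and 165.95 Mb (-0.898). Each was found within 2 bins in 4 of 4 libraries. Between these edges lay an upstream block from 164.66 to 164.98 Mb, an intervening block of 27 bins from 164.98 to 165.25 Mb, the Mtor block from 165.25 to 165.47 Mb, which held the 12 bins of the gene, and a downstream block from 165.47 to 165.95 Mb.

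The upstream block and the Mtor block contacted each other across the intervening block, and both had few contacts with it relative to distance. Between the upstream block and the Mtor block, observed over expected was 1.65 and 1.63 in Lenti-GFP and 1.37 and 1.34 in Lenti-AS. Between the upstream and the intervening block, which are direct neighbours, it was 0.555 and 0.530 in Lenti-GFP and 0.480 and 0.527 in Lenti-AS. Between the intervening block and the Mtor block it was 0.487 and 0.448 in Lenti-GFP and 0.399 and 0.419 in Lenti-AS. In every library, then, the more distant pair of blocks had more than the average number of contacts for its distance and both pairs of neighbours had fewer. The blocks were cut where contacts across a bin were fewest in the sum of these same libraries. Low values between neighbours therefore follow in part from the cutting and are no separate result. When the expected count also held the cis contacts of both bins, the distant pair was near 1, at 0.968 and 1.04 in Lenti-GFP and 0.969 and 0.965 in Lenti-AS. The pairs of neighbours stayed below it, between 0.382 and 0.562.

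**Figure D1:**
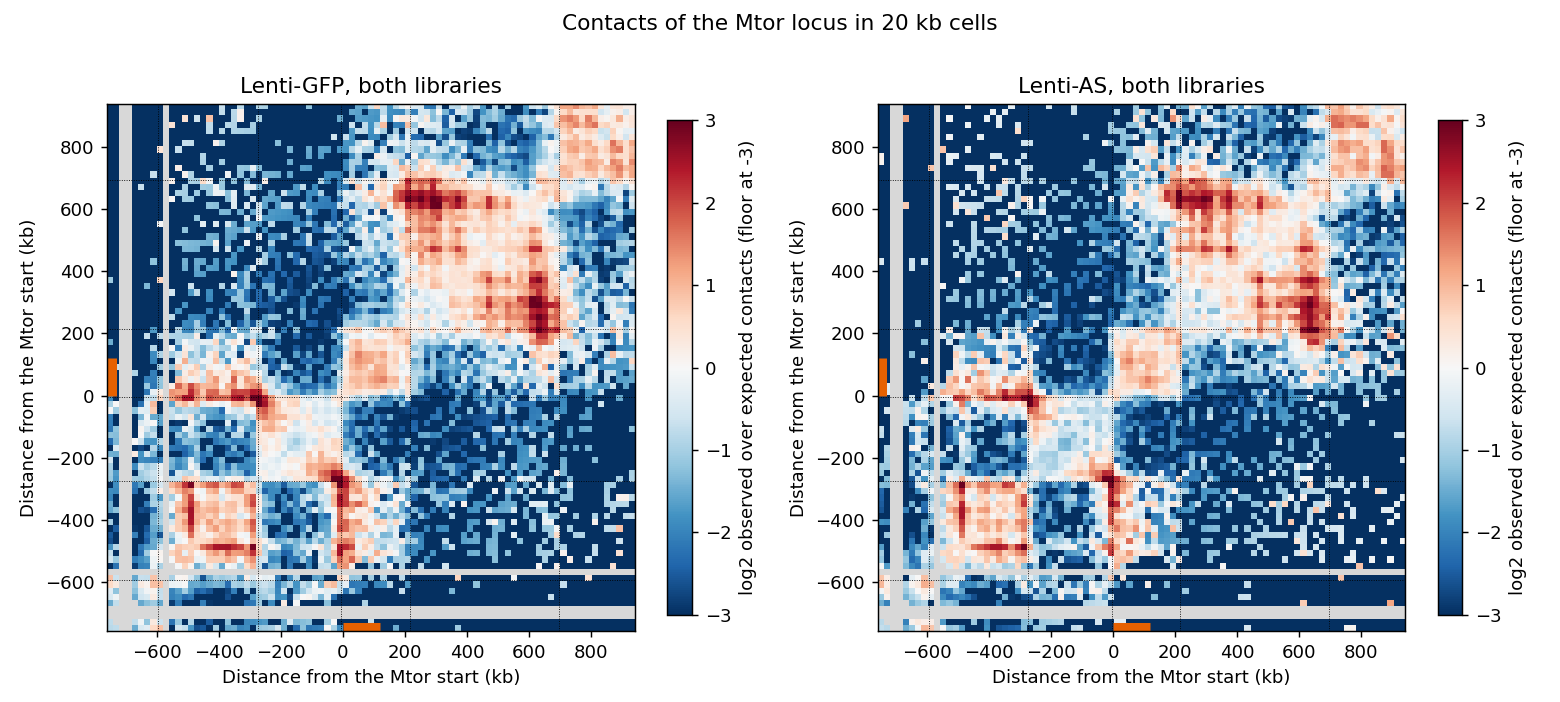
Contact map of the window in cells of 20 kb for the sum of the Lenti-GFP libraries (left) and of the Lenti-AS libraries (right). Both axes give the distance from the Mtor start in kb, colour gives log2 observed over expected with a floor at -3, grey cells hold no used bins, dotted lines are the 5 domain edges and orange bars mark Mtor. In both groups a stripe of contacts runs from around the gene start over the upstream block, between 280 and 600 kb before the start, and leaves out the intervening block.

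The contact was highest around the gene start and lower, though not steadily so, along the gene. The start bin held 102 and 114 contacts with the upstream block in Lenti-GFP and 69 and 55 in Lenti-AS, which is 3.94, 3.79, 3.47 and 2.91 in observed over expected. The strongest bin was the domain edge itself, the bin just before the start, with 4.90 and 5.51 in Lenti-GFP and 4.33 and 5.08 in Lenti-AS. In the sum of the 4 libraries the value was 3.67 at 20 kb before the start, 5.01 at 10 kb before it, 3.59 at the start, 2.47 at 10 kb after it and 1.68 at 20 kb after it. It was 2.18 and 1.97 in the next bins, at most 1.32 in those after them and 1.03 at the 3' end. With the cis contacts of both bins in the expected count, the start bin had 2.19 and 2.48 in Lenti-GFP and 2.28 and 1.96 in Lenti-AS, and the end bin had 0.672, 0.626, 0.523 and 0.390. On either scale the start thus exceeded the end in every library, while the end lay below average with the cis contacts included.

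By distance, the start bin was depleted of contacts with the stretches from 50 to 200 kb before it and enriched in those from 200 to 500 kb. Before 164.66 Mb it was depleted again, with 0.613 and 0.175 in Lenti-GFP and 0.530 and 0.279 in Lenti-AS, from 1 to 3 contacts per library. With the stretch 50 to 100 kb before it, observed over expected was 0.464 and 0.402 in Lenti-GFP and 0.507 and 0.535 in Lenti-AS. With the stretch 100 to 200 kb before it, the values were 0.517 and 0.417 in Lenti-GFP and 0.269 and 0.426 in Lenti-AS. They rose to 2.55, 2.56, 2.08 and 1.87 for 200 to 300 kb, in the order Lenti-GFP 1 and 2 and Lenti-AS 1 and 2. For 300 to 400 kb, the stretch taken here for the regulatory cluster, they were 4.46, 3.76, 4.66 and 3.24. In the sum of the 4 libraries this last value was 4.03, higher than in 98.6% of the bins of the genome, whereas the value for 100 to 200 kb was 0.415, higher than in 15.5%. The study had singled out Mtor for contacts at about this distance in these data, so the high rank is no separate result.

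**Figure D2:**
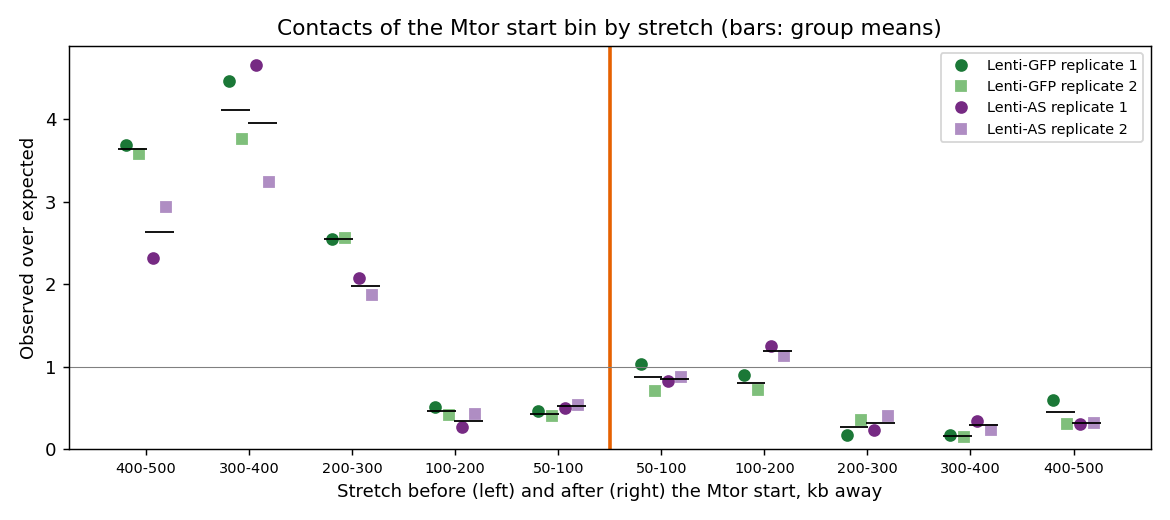
Observed over expected contacts of the Mtor start bin with stretches before (left of the orange line) and after (right) the start, 1 point per library and a bar for each group mean. The points for 200 to 500 kb before the start lie between 1.87 and 4.66, and those of all other stretches lie at or below 1.25.

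On the other side, the start bin had few contacts beyond its own block. With the Mtor block it had 1.29 and 1.27 in Lenti-GFP and 1.45 and 1.39 in Lenti-AS, so both Lenti-AS values were the higher, and with the cis contacts of both bins in the expected count it had 0.764, 0.846, 1.04 and 1.00, no longer above average in Lenti-GFP. Its contacts amounted to 0.896 and 0.715 in Lenti-GFP and 1.25 and 1.14 in Lenti-AS for 100 to 200 kb after the start. For 300 to 400 kb after it they were 0.175 and 0.150 in Lenti-GFP and 0.341 and 0.240 in Lenti-AS, from 2 or 3 contacts per library. Beyond 200 kb, the start bin thus had more contacts before the gene than after it.

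The strongest single partner of the start bin, among bins at least 50 kb away, was the bin chr5:164980001-164990000, 280 kb before it. This is the edge between the upstream and the intervening block. It held 15 and 14 contacts with the start in Lenti-GFP and 10 and 9 in Lenti-AS, or 10.4, 8.38, 9.04 and 8.60 in observed over expected. The next were bins of the upstream block that began at 164.91 Mb (7.10 in the sum of the 4 libraries), 164.77 Mb (6.24), 164.82 Mb (5.16) and 164.97 Mb (4.91). The bin at 164.77 Mb, 490 kb before the start, held 7 contacts in each Lenti-GFP library and 1 and 2 in Lenti-AS, and observed over expected did not overlap, at 9.41 and 8.10 against 1.74 and 3.68. The bin at 164.91 Mb, 350 kb before the start, held 7 and 8 contacts in Lenti-GFP and 6 and 8 in Lenti-AS, and its values of 6.26 and 6.18 in Lenti-GFP lay below those of 6.99 and 9.84 in Lenti-AS. Both bins of the upstream block thus separated the groups, in opposite directions and on few contacts.

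From the 3' end of Mtor, contacts were most frequent, relative to distance, within its own block and few with the intervening block. The end bin had 1.85 and 1.98 in Lenti-GFP and 2.04 and 1.93 in Lenti-AS with the Mtor block, and 0.151, 0.223, 0.252 and 0.236 with the intervening block. With the cis contacts of both bins in the expected count, the values for the Mtor block were 1.02, 1.13, 1.28 and 1.25. Of its 5 strongest partners, 4 lay inside the gene, between 50 and 80 kb before the end, with 2.86 to 3.22 in the sum of the 4 libraries. The strongest, at 165.31 Mb, had 2.10 and 2.94 in Lenti-GFP and 5.20 and 3.07 in Lenti-AS, and its neighbour at 165.30 Mb had 3.90 and 3.54 against 2.40 and 2.53, so adjacent bins separated the groups in opposite directions. The fifth began at 165.99 Mb, 620 kb after the end, and rested on 5 contacts, 0 in both Lenti-GFP libraries and 3 and 2 in Lenti-AS. The stretch 200 to 300 kb before the end, which lies in the intervening block, held 1 to 3 contacts per library and a summed value of 0.113, higher than in 2.71% of the bins of the genome.

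The gene also contacted itself. Pairs of bins within Mtor had 1.78 and 1.77 in Lenti-GFP and 1.71 and 1.53 in Lenti-AS. With the cis contacts of both bins in the expected count, they had 1.047 and 1.117 in Lenti-GFP and 1.223 and 1.215 in Lenti-AS. These values were closer to average, and Lenti-AS then lay above Lenti-GFP. The start and end bins, 110 kb apart, shared 4 contacts in each Lenti-GFP library and 4 and 2 in Lenti-AS. This was 1.06 in the sum, near the genome average for this distance, but rested on these few contacts. With the cis contacts of both bins in the expected count, the pair was below average in every library. Its values were then 0.566 and 0.557 in Lenti-GFP and 0.819 and 0.448 in Lenti-AS.

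**Figure D3:**
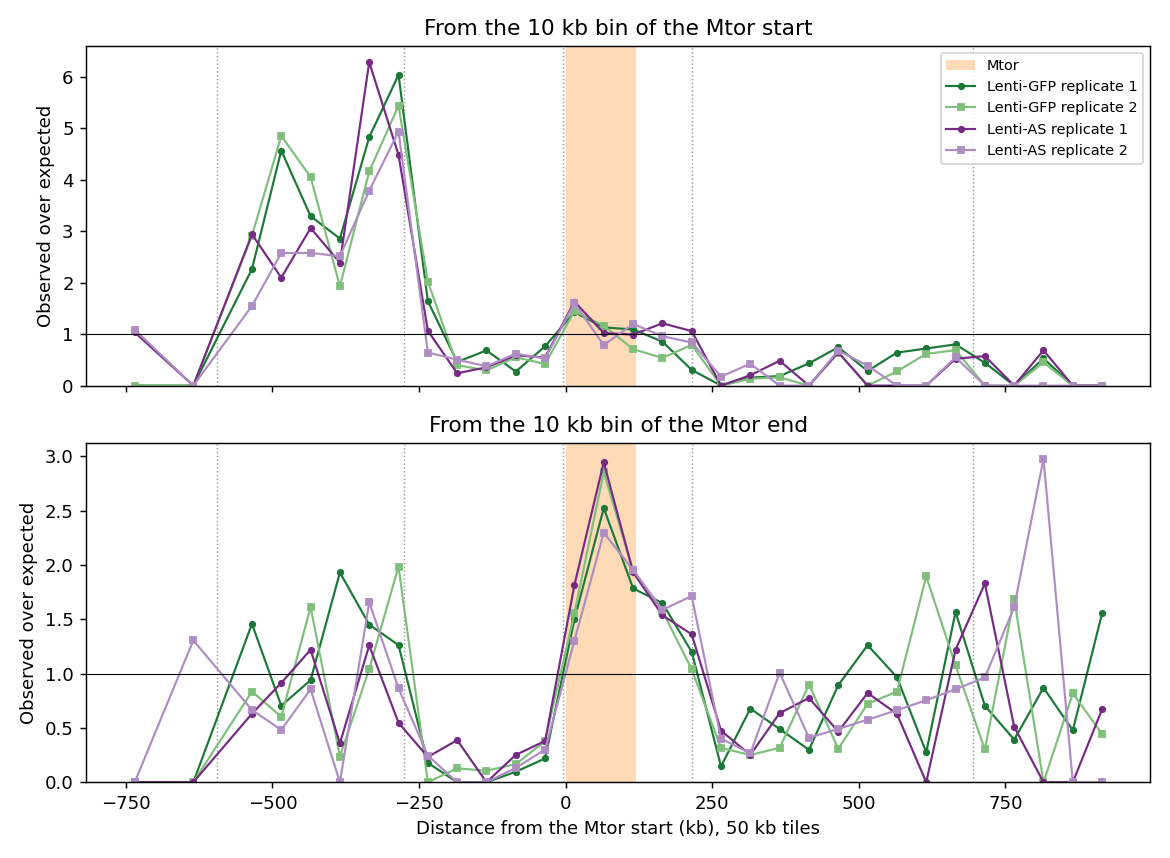
Observed over expected contacts in tiles of 50 kb from the Mtor start bin (top) and the Mtor end bin (bottom), 1 line per library. The x axis is the distance from the Mtor start in kb, orange marks the gene and dotted lines mark the domain edges. The start peaks in the tile centred at -285 or -335 kb in every library. The end peaks in the tile centred 65 kb after the start, inside the gene, in all but Lenti-AS 2, where the sparse tile centred 815 kb after the start is higher (2.98, from 5 contacts).

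Lenti-AS and Lenti-GFP were first compared over pairs of 100 kb bins, in 1 edgeR quasi-likelihood fit over 311256 pairs of the genome. Of the 206 tested pairs with an end in the window, 3 were lower in Lenti-AS and 0 were higher, or 1.46% beside a background of 0.328% called in either direction and 0.232% called lower. At an unadjusted p below 0.05 there were 24 lower and 2 higher, beside 14610 lower and 12931 higher of the 311256 pairs of the genome. The median log2 change was -0.09 over these pairs, -0.22 over the 29 pairs with a bin that holds part of Mtor, and -0.0047 over all pairs tested.

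The first of the 3 pairs joined the bins that begin at 165.0 and 165.1 Mb, both in the intervening block. It held 646 and 714 contacts in Lenti-GFP and 415 and 337 in Lenti-AS, or 1.41 ± 0.0448 and 1.11 ± 0.121 in observed over expected (SD, n = 2), without overlap between the groups. Its log2 change was -0.34 (edgeR, adjusted p = 0.0024), and it turned to 0.37 with an adjusted p of 0.000585 when the expected count also held the cis contacts of both bins. The second pair joined the bin at 164.7 Mb in the upstream block with the bin at 165.2 Mb. The latter holds the last part of the intervening block and the edge at 165.25 Mb besides the start of Mtor. It held 148 and 187 contacts in Lenti-GFP and 86 and 72 in Lenti-AS, or 2.40, 2.61, 1.81 and 1.60, again without overlap. The log2 change was -0.56 (edgeR, adjusted p = 0.0319), and with the cis contacts of both bins in the expected count it was -0.19 (adjusted p = 0.839). With any 1 of the 4 libraries left out this pair no longer passed, with adjusted p between 0.103 and 0.530. The third pair joined the bin at 165.1 Mb with the bin at 165.2 Mb, and it held 426 and 437 contacts in Lenti-GFP and 256 and 226 in Lenti-AS. Its log2 change was -0.33 (edgeR, adjusted p = 0.0487), and 0.20 with the cis contacts of both bins (adjusted p = 0.566). The number of pairs called was 0 without Lenti-GFP replicate 1, 2 without Lenti-GFP replicate 2, 1 without Lenti-AS replicate 1 and 0 without Lenti-AS replicate 2, and DESeq2 called 0.

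The total number of contacts of the bins also differed between the groups. The intervening block held 105 and 99.9 ppm of the library's cis contacts in Lenti-GFP and 84.2 and 81.7 ppm in Lenti-AS. Of the trans contacts, those with other chromosomes, it held 118 ± 5.96 ppm in Lenti-GFP and 104 ± 2.16 ppm in Lenti-AS (SD, n = 2). The Mtor block held 114 ± 2.67 ppm of cis and 107 ± 4.24 ppm of trans contacts in Lenti-GFP, and 106 ± 1.23 and 94.5 ± 0.183 ppm in Lenti-AS. In both blocks and for both kinds of contact, Lenti-AS lay below Lenti-GFP (two-sided exact permutation p = 0.333). The same held for the upstream and the downstream block. In the parts of the window before 164.66 Mb and after 165.95 Mb, the cis shares of the groups overlapped. The trans shares also overlapped before 164.66 Mb. After 165.95 Mb they were again lower in Lenti-AS, at 89.8 and 86.1 ppm against 97.9 and 95.5 ppm in Lenti-GFP. How much of the contact changes these totals account for was not tested. The cis totals include the compared contacts themselves and enter the expected count for both bins of a pair. Scaling by them can therefore by itself turn a lower value into a higher one.

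Relative to distance, contacts of the whole gene with the upstream block had a mean of 1.83 (SD 0.0266) over the Lenti-GFP libraries and of 1.44 (SD 0.00384) over the Lenti-AS libraries, a log2 ratio of -0.35 (n = 2, exact permutation test, p = 0.333). With the cis contacts of both bins in the expected count, the ratio was -0.09. The values were then 1.052 and 1.135 in Lenti-GFP and 1.001 and 1.051 in Lenti-AS, so the groups were barely apart. For the start bin alone the ratio was -0.28 and became -0.14 with overlap between the groups. For the end bin, which held 25 contacts with the upstream block in each Lenti-GFP library and 13 and 9 in Lenti-AS, the values were 1.31 and 1.13 against 0.886 and 0.646. That ratio was -0.67, and -0.51 with the cis contacts, with Lenti-AS below Lenti-GFP in both. Contacts within the intervening block had means of 1.06 (SD 0.0403) and 0.807 (SD 0.0199), a log2 ratio of -0.39, which turned to 0.23 with the cis contacts in the expected count. Contacts of the gene with the intervening block had a ratio of -0.18, which turned to 0.27.

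The test planned for the regulatory cluster, at its assumed place, used the stretch 300 to 400 kb before a bin. It compared the contacts of each 10 kb bin of the genome with that stretch. The Mtor start held 51 and 50 contacts with this stretch in Lenti-GFP and 41 and 27 in Lenti-AS. Relative to distance, means were 4.11 (SD 0.493) for Lenti-GFP and 3.95 (SD 1.01) for Lenti-AS, the groups overlapped, and the log2 change was -0.04 (edgeR, adjusted p = 0.982). The change ran from -0.33 to 0.19 when each library was left out in turn, and turned positive without Lenti-GFP replicate 1 (0.0769) or Lenti-AS replicate 2 (0.19). It was 0.0905 with the cis contacts of both bins in the expected count, and -0.45 with the next bin of the gene as viewpoint (adjusted p = 0.881). In this fit 0.00253% of the bins of the genome passed.

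Over all 10 stretches before and after each of the 12 bins of Mtor, 83 of 120 combinations had enough contacts to be tested, and 0 passed in edgeR or in DESeq2, beside 0.00179% of all bins and stretches in the genome in edgeR. Of the 1040 combinations tested over the whole window, which include those of the gene, 100 had an unadjusted p below 0.05. The share of the genome at this p, and its split by direction, are not given here. Among the combinations of the gene there were 8, a like share to that of the window, of which 7 were lower and 1 was higher in Lenti-AS. The higher one was the start bin with the stretch 100 to 200 kb after it, which lies at the end of the gene and beyond, with 26 and 24 contacts in Lenti-GFP and 28 and 24 in Lenti-AS (log2 change 0.58, edgeR adjusted p = 0.733). The lower one with the smallest p was the next bin of the gene, with 49 and 43 contacts with the stretch 50 to 100 kb after it in Lenti-GFP and 24 and 16 in Lenti-AS (log2 change -0.69, edgeR adjusted p = 0.592). Next by p among all higher combinations of the gene was the end bin with the stretch 50 to 100 kb after it (0.31, adjusted p = 0.839). It was not among the 8 (edgeR, unadjusted p = 0.161). Next among the lower ones was a bin inside the gene, 70 kb after its start, with the stretch 400 to 500 kb before it (-1.24, adjusted p = 0.819). None of the 4 passed.

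Contact across the bins of the intervening block was lower in Lenti-AS relative to distance, but not once the cis contacts of both bins entered the expected count. In a limma fit over 239955 bins of the genome, 20 of the 155 bins of the window with a score passed, all lower in Lenti-AS, or 12.9% beside a background of 2.13% in either direction and 1.81% lower, and 19 of them lay in the intervening block, which has 27 bins, while the other began at 164.70 Mb. The one with the smallest p, chr5:165190001-165200000, 70 kb before the start of Mtor, had insulation scores of -0.13 and -0.26 in Lenti-GFP and -0.56 and -0.58 in Lenti-AS, a difference of -0.37 (limma, adjusted p = 0.0205). In the middle of the block, the bin at 165.11 Mb had scores of 0.81 and 0.75 in Lenti-GFP and 0.49 and 0.45 in Lenti-AS, a difference of -0.31 (limma, adjusted p = 0.0275). The 20 differences ran from -0.37 to -0.26. Lower scores were not confined to the intervening block, since 132 of the 155 scored bins of the window were lower in Lenti-AS. The median difference was -0.077 in the window and 0.0031 over all bins of the genome. Each score spans 200 kb on either side, so neighbouring bins share most of their contacts. The called bins are therefore not separate measurements. With the cis contacts of both bins in the expected count 0 bins of the window passed, and the difference of the bin with the smallest p turned to 0.15. Since these cis contacts include the tested ones, this cannot show that the lower contact was absent. The number of bins called was 0 without Lenti-GFP replicate 1, 6 without Lenti-GFP replicate 2, 18 without Lenti-AS replicate 1 and 16 without Lenti-AS replicate 2. With a window of 100 kb in place of 200 kb it was 0.

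**Figure D4:**
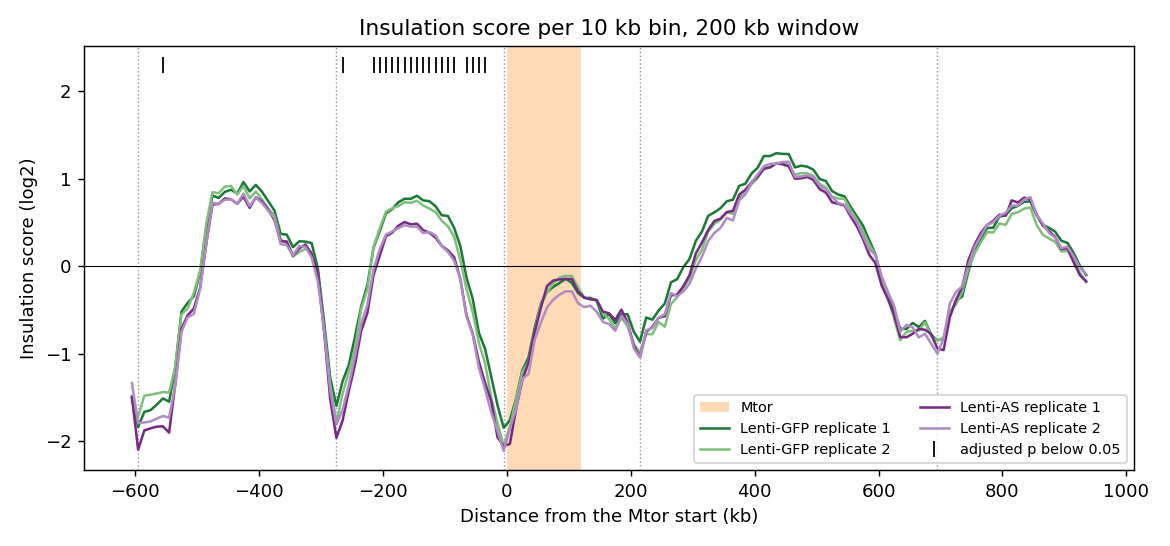
Insulation score (log2) per 10 kb bin against the distance from the Mtor start in kb, 1 line per library. Orange marks the gene, dotted lines the 5 edges and black ticks the 20 bins with an adjusted p below 0.05, of which 19 lie in the intervening block. There both Lenti-AS lines run below both Lenti-GFP lines. Over the whole window, 132 of the 155 scored bins were lower in Lenti-AS, so the lower scores are not confined to that block. With the cis contacts of both bins, which include the tested ones, in the expected count 0 bins passed. The difference then changed sign at the bin with the smallest p.

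Of the 12 bins of Mtor itself, 0 passed in limma. The start bin had scores of -1.76 and -1.84 in Lenti-GFP and -2.03 and -1.86 in Lenti-AS, a difference of -0.15 (limma, adjusted p = 0.241). The end bin had -0.31 and -0.24 in Lenti-GFP and -0.29 and -0.42 in Lenti-AS, a difference of -0.08 (limma, adjusted p = 0.457), and Lenti-AS replicate 1 lay between the Lenti-GFP libraries. Both differences turned positive, to 0.26 and 0.18, with the cis contacts of both bins in the expected count (adjusted p = 0.174 and 0.257). Without Lenti-AS replicate 2 the difference at the end bin was -0.02, and without Lenti-AS replicate 1 it was -0.15. With a window of 100 kb in place of 200 kb it was -0.14 (limma, adjusted p = 0.456).

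Domain edges within 200 kb of the gene were the same in all 4 libraries with the 200 kb window. The edge at 165.25 Mb, 10 kb before the start, had scores of -1.85 and -2.06 in Lenti-GFP and -2.06 and -2.11 in Lenti-AS. The edge at 165.47 Mb, 100 kb after the 3' end bin, had -0.863 and -0.990 in Lenti-GFP and -1.04 and -1.05 in Lenti-AS. Between these 2 edges there was no further edge in any library at the prominence of 0.2 that defined an edge, the depth by which a minimum lies below its surroundings. Around the 3' end bin, however, the 200 kb on either side reach past both edges. This window can therefore miss an edge nested between them. At a prominence of 0.1 a shallow minimum at 165.43 Mb, 60 kb after the 3' end bin, appeared in all 4 libraries, with prominences of 0.104 and 0.121 in Lenti-GFP and 0.117 and 0.167 in Lenti-AS. With a window of 100 kb it passed the prominence of 0.2 in Lenti-AS replicate 2 alone (0.273), which also had an edge of its own at 165.54 Mb, 170 kb after the 3' end bin, just at the threshold. In the whole window there were 5 and 6 edges in Lenti-GFP and 5 and 5 in Lenti-AS.

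Loops, pairs of 10 kb bins with more contacts than a regression on distance and cis contacts predicts, were called separately for the 4 libraries. With an end in the window there were 48 and 49 in Lenti-GFP and 39 and 30 in Lenti-AS. Over the whole genome the libraries had 90193, 104563, 70461 and 66135 loops, and after thinning all libraries to the same depth the counts in the window were 37 and 28 in Lenti-GFP and 37 and 30 in Lenti-AS. The higher number in Lenti-GFP was thus not seen over the window at equal depth, where the genome totals were 63525 and 64186 in Lenti-GFP and 66364 and 66135 in Lenti-AS. In the sum of the 4 libraries there were 113.

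The loops called in all 4 libraries lay at the edges of the intervening block or within the downstream block. The one with most contacts joined chr5:164980001-164990000 with chr5:165240001-165250000, the first bin of the intervening block with its last. It held 67 and 65 contacts in Lenti-GFP and 39 and 38 in Lenti-AS, or 42.9, 35.8, 32.4 and 33.4 in observed over expected, and was called in all 4 libraries (log2 change -0.25, edgeR adjusted p = 0.949). The pair of edge bins at 164.98 and 165.25 Mb was also called in all 4, with 27, 48, 33 and 23 contacts. Downstream, loops called in all 4 libraries joined the bins from 165.54 to 165.56 Mb, or the edge at 165.47 Mb, with bins at 165.88 and 165.89 Mb. In all, 8 of the 112 loops were called in 4 libraries and 79 in a single library.

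With an anchor in Mtor, 2 loops were called, and both had their other anchor at 164.98 Mb. There were 2 and 1 of them in Lenti-GFP and 0 and 0 in Lenti-AS, and at equal depth 1 and 1 against 0 and 0. At a stricter q of at most 0.01, no library had a loop with an anchor in Mtor. The loop of the start bin, 280 kb long, was called in both Lenti-GFP libraries and in neither Lenti-AS library. Its observed over expected values, given above, nevertheless overlapped between the groups, with means of 9.40 (SD 1.44) and 8.82 (SD 0.310) and a log2 change of -0.08 (edgeR adjusted p = 0.976). The loop of the bin 20 kb after the start, 300 kb long, was called in Lenti-GFP replicate 1 alone, with 12 and 6 contacts in Lenti-GFP and 7 and 2 in Lenti-AS (log2 change -0.47, edgeR adjusted p = 0.949). In the sum of the 4 libraries 1 loop had an anchor in Mtor, that of the start bin.

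Of the 112 loops with an end in the window, 0 passed in edgeR and in DESeq2, beside 0.0126% of 206596 loops in the genome in edgeR. At an unadjusted p below 0.05 there were 10, and all of them also met the study's rule, which adds a log2 change beyond 1 in either direction: 5 gained and 5 lost, beside 2.88% of the loops in the genome. None of the 10 had an anchor in Mtor. The smallest p belonged to the loop of the bins at 164.99 and 165.24 Mb in the intervening block, with 18 and 35 contacts in Lenti-GFP and 7 and 8 in Lenti-AS (log2 change -1.28, edgeR adjusted p = 0.949). The other lower one named by the rule joined 165.53 and 165.90 Mb, with 11 and 12 contacts against 2 and 2 (-1.94). The higher ones joined 165.47 and 165.89 Mb, with 7 and 12 against 15 and 15 (1.18), and 165.56 and 165.72 Mb, with 7 and 9 against 14 and 13 (1.27). None of these 4 passed.

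The blocks also differed in the first eigenvector of the balanced 100 kb matrices, a score that splits a chromosome into 2 classes of bins by their long-range contacts. Its sign was set so that it correlated positively with trans contacts, and the classes were not named. The bins that hold Mtor were positive in both groups, at 0.17 in Lenti-GFP and 0.11 in Lenti-AS for the bin at 165.2 Mb and at 0.48 in both for the bin at 165.3 Mb. The upstream bins from 164.7 to 165.0 Mb were also positive, between 0.17 and 0.31, whereas the bins at 165.0 and 165.1 Mb between them were negative, at -0.33 and -0.36 in Lenti-GFP and -0.30 and -0.33 in Lenti-AS. From 165.3 Mb to the end of the window every bin was positive. The sign differed between the groups in 0 of the 17 bins of the window and in 30 of 1715 bins of the chromosome. In the single libraries, the mean over both bins that hold Mtor was 0.26 and 0.26 in Lenti-GFP and 0.21 and 0.20 in Lenti-AS. With 1 balanced matrix per group the balanced values have no replicate check. The eigenvector held 11.4% and 12.7% of the variance in Lenti-GFP replicates 1 and 2 and 8.84% and 8.49% in the less deeply sequenced ones of Lenti-AS.

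**Figure D5:**
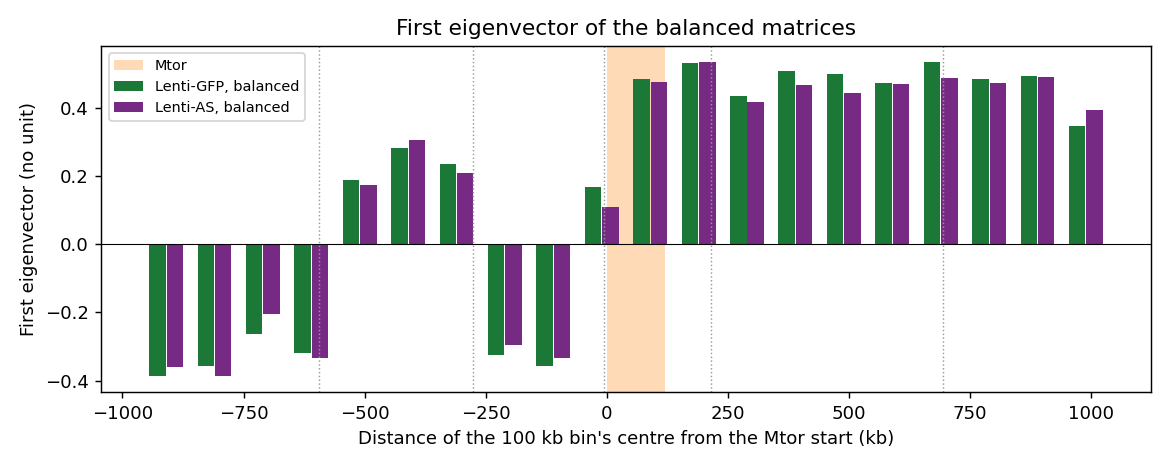
First eigenvector (no unit) of the balanced matrix of each group per 100 kb bin, against the distance of the bin's centre from the Mtor start in kb. Orange marks Mtor and dotted lines the domain edges. In both groups the 2 bins before the one that holds the gene start are negative, and the 3 bins before those and all bins after them are positive.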

How the data were processed

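Paired reads came from Hi-C libraries prepared by the Arima kit. The deposited raw matrices, made by the authors with HiC-Pro, hold, for each library, contact counts between 10 kb bins, without normalization. The deposited balanced matrices hold signal, for which the authors had merged the libraries of a group and applied iterative correction (ICE); of these, the 100 kb matrices were used for the eigenvector and the 10 kb ones were not used. The labels name the builds rn6 and Rnor_6.0, and the version of HiC-Pro is not given in the sources used here.

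A bin was used where its cis contacts in the sum of all libraries reached 0.25 of the median bin. Expected counts were each library's mean at the same distance, up to 2 Mb. Counts were compared with edgeR 4.0.16 (quasi-likelihood, group as the only term, expected counts as offsets), over 100 kb pairs within 1.9 Mb and a mean count from 10 upwards, over stretches with a mean count from 5 upwards, and over loops. Insulation was compared with limma 3.58.1. All p-values were adjusted with Benjamini-Hochberg over all features of the genome in each fit, and called at 0.05. DESeq2 1.42.0 was an alternative. Loops came from a negative binomial regression per chromosome at q of at most 0.05 between 50 kb and 2 Mb, since the study's HiCDCPlus is not installed. Domain edges were minima with a prominence of at least 0.2, in place of OnTAD. Blocks were cut at the edges of the summed libraries. The tests were tried on simulated data, with outcomes that are not given here. Regions were named by rule: the start and end bins, the 5 bins of the window at least 50 kb away with the highest summed observed over expected, every feature past the threshold (up to 10 by p, or the 2 of lowest p in each direction), and every edge within 200 kb of the gene. The members and lists were chosen with earlier results of these data known. Alternatives were other offsets, filters, bin sizes, windows and prominences, a replicate block, and each library left out, where a lone library was assumed to vary like the other group.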

Additional observations from a re-analysis of the deposited data

How the results depend on the processing

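The count of changed 100 kb pairs with an end in the window was 3 in the reported fit and 4 with a replicate block or with one size factor per library. It was 0 with DESeq2, and 1 each with a mean count of at least 1, with 50 kb bins and with the cis contacts of both bins in the offsets, where the called pair was higher. It ran from 0 to 2 when libraries were left out. Among the called pairs, offsets with the cis contacts of both bins turned the changes to 0.37 and 0.20 in the pairs 165.0 with 165.1 Mb and 165.1 with 165.2 Mb and left that of 164.7 with 165.2 Mb at -0.19. For the start bin with the stretch 300 to 400 kb before it, the change of -0.04 turned to 0.0905 with these offsets, ran from -0.33 to 0.19 with libraries left out, was -0.06 with a replicate block, and was -0.45 with the next bin as viewpoint. The insulation difference of the end bin, -0.08, turned to 0.18 with the cis contacts and ran from -0.15 to -0.02 with libraries left out. That of the start bin, -0.15, turned to 0.26, and that of the bin with the smallest p, -0.37, turned to 0.15. The 20 bins of changed insulation became 33 with a replicate block, 32 with a window of 300 kb, 0 with a window of 100 kb, 0 with the cis contacts, and 0 to 18 with libraries left out. The causes were not tested. Changed loops numbered 10 by the study's rule and 0 in the other settings. Changed stretches of the gene bins numbered 0 in every setting run. The difference in loops per library, -14 for Lenti-AS minus Lenti-GFP, became 1 at equal depth. That in domain edges, -0.5, became 1.5 with a window of 100 kb, 1 with a window of 300 kb and 1 at a prominence of 0.1. The eigenvector over the bins of Mtor, 0.33 in Lenti-GFP and 0.29 in Lenti-AS, was 0.26 and 0.20 as the mean of single libraries, with the same sign.

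The replicate numbers were not taken to pair the libraries, since same-numbered libraries deviated together with a correlation of 0.0049 over 100 kb pairs and 0.151 over insulation, from 2 pairs. The paired fits with the replicate block changed no other call. The planned sign of the eigenvector from gene density and the tests of mTOR pathway genes were not run, for want of gene positions in rn6. Depth limits single pairs, since about 1 contact was expected per pair at 300 kb and the strongest partner of the start bin held 9 to 15, and the power to detect a change there was not tested.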
